A study of Mus musculus with 12 samples.

Results

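A set of 10 immediate early genes was followed across the groups and single libraries of an RNA-seq study of soleus, a slow postural muscle of the hind limb, in old mice. They are Fos, Fosb, Jun, Junb, Jund, Egr1, Ier2, Atf3, Btg2 and Nr4a1, chosen by name, and all 10 were found among the 30323 genes of the table. The mice were male C57BL/6N animals from the NIA aging colony, 24 months old, housed singly and given 8 weeks of voluntary wheel running. They were sorted into low functioning (LF) and high functioning (HF) by their time on an accelerating rotarod, a motor test, and either had a laparotomy (surgical opening of the abdomen) or served as age-matched controls. Soleus was taken 5 days after the surgery. Age, sex, strain, housing and wheel running are thus shared by all groups, and function was assigned by test performance, not by an intervention. The 12 libraries form 4 groups of 3, which are named by function and treatment (LF control and LF laparotomy, HF control and HF laparotomy). The replicate numbers only name libraries, and nothing in the labels makes each library a separate mouse. The p-values below therefore set group differences only against the spread of these libraries, and that spread may be technical.

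Immediate early genes are transcribed within minutes of a stimulus by factors already present in the cell, without new protein synthesis, and their mRNAs are usually short-lived. Growth factors, stretch, calcium and stress reach them through MAP kinases and through the transcription factors SRF, ELK1 and CREB. Many of their products are themselves transcription factors: proteins of the Fos and Jun families pair through leucine zippers to form AP-1. In muscle, contraction, injury and tissue handling are known to raise them briefly.

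Upstream sequence of 3 members is printed because Fos and Jun encode the partners of AP-1, and because Fos, Jun and Nr4a1 all had their highest value in the same library. Each run is the 250 bases before the gene's start in RefSeq (GRCm38.p6), 5′ to 3′ on the gene's strand, and capitals mark matches on either strand to a cyclic AMP response element (CRE, TGACGTCA), its core (TGACG), an AP-1 variant (TGACATCA) or a TATA box (TATAAA). They are chr12:85473640-85473889 on the plus strand for Fos, chr4:95052223-95052472 on the minus strand for Jun and chr15:101266596-101266845 on the plus strand for Nr4a1, whose RefSeq start lies inside the GENCODE gene.
Fos: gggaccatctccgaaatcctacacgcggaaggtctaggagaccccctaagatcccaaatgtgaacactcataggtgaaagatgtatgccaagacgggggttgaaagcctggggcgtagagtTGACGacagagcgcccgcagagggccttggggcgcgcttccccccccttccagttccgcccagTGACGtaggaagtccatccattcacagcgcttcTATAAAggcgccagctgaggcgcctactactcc
Jun: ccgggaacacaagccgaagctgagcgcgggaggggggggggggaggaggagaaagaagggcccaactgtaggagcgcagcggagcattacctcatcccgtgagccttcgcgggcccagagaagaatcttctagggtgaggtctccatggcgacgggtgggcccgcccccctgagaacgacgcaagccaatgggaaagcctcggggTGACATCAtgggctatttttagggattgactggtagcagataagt
Nr4a1: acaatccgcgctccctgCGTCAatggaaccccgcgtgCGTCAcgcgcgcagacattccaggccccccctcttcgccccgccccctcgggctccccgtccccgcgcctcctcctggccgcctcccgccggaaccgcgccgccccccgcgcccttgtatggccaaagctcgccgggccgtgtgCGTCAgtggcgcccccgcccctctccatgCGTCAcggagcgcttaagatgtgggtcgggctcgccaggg

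The CRE core occurred at -129 to -125 and -66 to -62 of Fos, counted back from the gene's start, and the TATA box at -33 to -28. The AP-1 variant occurred at -45 to -38 of Jun, and Nr4a1 held 4 CRE cores, all on the other strand (CGTCA). Of the 8 members searched, 6 held a CRE core (Fos, Fosb, Junb, Atf3, Btg2 and Nr4a1), against 17.8% of 32851 promoters of the same length. A full CRE was found only in Btg2, at -166 to -159, where its 2 cores lie within it (1.55% of all promoters), and the AP-1 variant only in Jun (2.93%). The GC box GGGCGG was in 6 of the 8 (32.7% of all) and the EGR site GCGGGGGCG in Fosb and Nr4a1 (2.57% of all), overlapping a GC box in both. The AP-1 site TGACTCA (4.46% of all) and the CArG box, bound by SRF (1.47% of all), had no match in the 8 windows. Sequence outside these windows was not searched, and neither were Egr1 and Ier2. The search therefore cannot tell whether members have such sites elsewhere. These matches describe letters in a window, not binding.

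The members differ in size and structure. In GRCm38 with GENCODE M21 annotation, Ier2 (ENSMUSG00000053560) lies on chromosome 8 from 84661331 to 84662852, Junb (ENSMUSG00000052837) on chromosome 8 from 84974484 to 84978718 and Jund (ENSMUSG00000071076) on chromosome 8 from 70698949 to 70700616. Jun (ENSMUSG00000052684) lies on chromosome 4 from 95049034 to 95052222, Fos (ENSMUSG00000021250) on chromosome 12 from 85473890 to 85477273 and Fosb (ENSMUSG00000003545) on chromosome 7 from 19302696 to 19310051. Egr1 (ENSMUSG00000038418) lies on chromosome 18 from 34859823 to 34864984 and Nr4a1 (ENSMUSG00000023034) on chromosome 15 from 101254269 to 101274795. Atf3 (ENSMUSG00000026628) and Btg2 (ENSMUSG00000020423) are both on chromosome 1, from 191170296 to 191218039 and from 134075170 to 134079120. The longest transcripts of Jun, Junb, Jund and Ier2 have a single exon, 4 of 10 members (40%) against 7.04% of 10686 tested genes with a transcript model. Median transcript length was 2330.5 bases over the members and 3299 over those genes, and median GC content was 56.5% and 49.8%. Junb shares exon sequence with Prdx2 on the opposite strand, Jun with Junos and Jund with Gm11175. Prdx2 was among the tested genes, while Junos and Gm11175 have no value among the deposited TPM. The labels name a stranded kit, but no source used here gives the strand setting of the quantification. The values of these 3 members are uncertain to that extent. No member had a near-identical copy elsewhere among the transcripts.

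Levels are given as TPM, transcript abundances scaled by transcript length and library total, so levels can be set side by side between genes, while read depth is unknown. TPM summed to 956473 to 962830 per library, and 10324 to 10954 genes reached 1 TPM. Slow fibre markers summed to 25501 to 37812 TPM with none at 0, and slow fibres are what soleus is known for. Fast fibre markers summed to 20990 to 35144 TPM, also with none at 0, so transcripts of both fibre types were abundant. Myh4, the fastest myosin, stood above 30 TPM in LF control 3 (33.5), LF laparotomy 1 (62.4) and HF laparotomy 2 (90.8), and results that change without these 3 libraries are given both ways. Mitochondrially encoded genes held 26.4% to 39.7% of TPM. In whole tissue, fewer cells of a type and less RNA per cell cannot be told apart.

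Members were low to moderate in abundance. Averaged over the 12 libraries, Jun was highest at 17.2 TPM (the 70.6th percentile of tested genes), followed by Nr4a1 at 11.1, Btg2 at 9.94, Atf3 at 8.57, Jund at 7.29, Ier2 at 3.76, Junb at 3.51, Egr1 at 2.08 and Fos at 1.57 TPM (the 8.94th percentile). The library ranges of neighbours in this order overlapped in every case down to Fos. Fosb, a Fos family member, was listed at 0 TPM in 10 libraries, at 0.0313 TPM in LF control 3 and at 0.0671 TPM in LF laparotomy 3. The 9 members other than Fosb had a mean of at least 1 TPM and were among the 10757 genes tested.

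**Figure D1:**
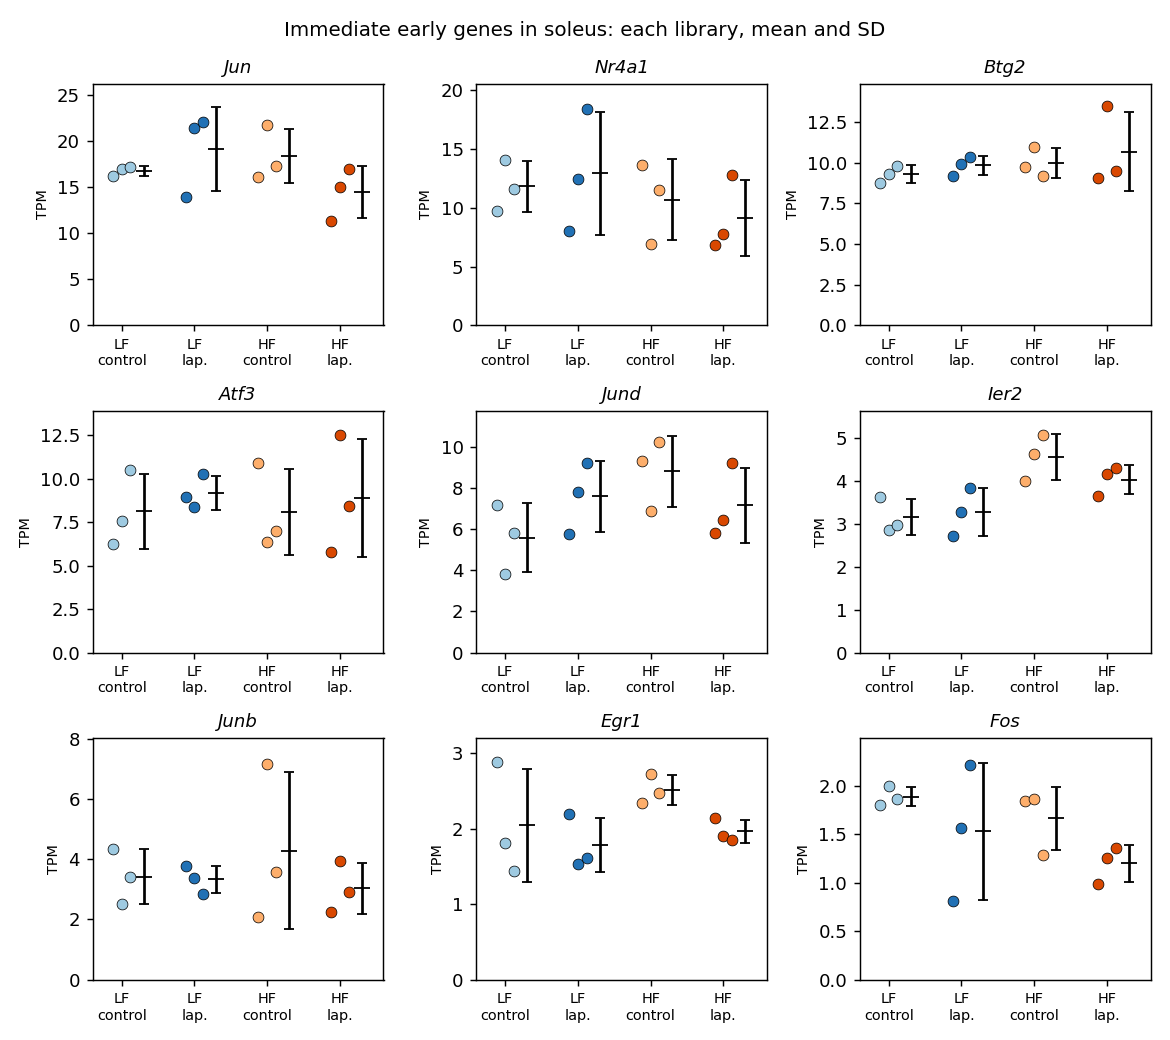
Level of each tested member (TPM, linear axis from 0) in every library of the 4 groups (points, 3 per group), with the group mean and SD (bar beside the points). Ier2 is higher in the 3 HF control libraries (4.0 to 5.07) than in the 3 LF control libraries (2.87 to 3.64), whereas most other panels show groups that overlap; lap. stands for laparotomy.

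Fos, the founding AP-1 partner that cannot pair with itself, was at 1.81, 2.0 and 1.86 TPM in LF controls, 0.81, 1.57 and 2.22 in LF laparotomy, 1.84, 1.86 and 1.29 in HF controls and 0.99, 1.26 and 1.36 in HF laparotomy. The LF laparotomy libraries spanned both the lowest and the highest value of the whole set, and overlapped every other group. Group means ± SD ran from 1.89 ± 0.0979 in LF controls through 1.66 ± 0.327 in HF controls and 1.53 ± 0.705 in LF laparotomy to 1.20 ± 0.191 TPM in HF laparotomy (n = 3 each), with each neighbouring pair closer than the larger of its SDs. Its relative Fosl2 was listed at a mean of 2.38 TPM (range 1.63 to 3.19), and Fosl1 at 0.554 TPM (range 0.348 to 0.950). Relatives of members were added to the genes named after their values were seen.

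Jun, which pairs with Fos and also with itself, was at 16.2, 17.0 and 17.2 TPM in LF controls, 13.9, 21.4 and 22.1 in LF laparotomy, 16.1, 21.7 and 17.3 in HF controls and 11.4, 15.0 and 17.0 in HF laparotomy. The LF control libraries lay closest together, inside the ranges of LF laparotomy and HF control. Means ± SD were 19.1 ± 4.54 in LF laparotomy, 18.4 ± 2.95 in HF controls, 16.8 ± 0.527 in LF controls and 14.4 ± 2.83 TPM in HF laparotomy (n = 3 each).

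Junb, a Jun relative with weaker activating ability, was at 4.34, 2.51 and 3.41 TPM in LF controls, 3.76, 3.37 and 2.86 in LF laparotomy, 2.10, 7.15 and 3.59 in HF controls and 2.24, 3.92 and 2.92 in HF laparotomy. HF control held both its highest and its lowest library, a 3.41-fold range and the widest of the tested members. Jund, the most constantly expressed Jun family member in most tissues, was at 7.16, 3.81 and 5.80 TPM in LF controls, 5.78, 7.78 and 9.23 in LF laparotomy, 9.32, 6.87 and 10.2 in HF controls and 5.81, 6.46 and 9.23 in HF laparotomy. Its LF control libraries were the lowest on average (5.59 ± 1.69 TPM) and its HF control libraries the highest (8.81 ± 1.74 TPM), and these groups overlapped by 1 library on each side.

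Together Jun, Junb and Jund summed to 25.8 ± 2.26 TPM in LF controls, 30.1 ± 5.79 in LF laparotomy, 31.5 ± 4.12 in HF controls and 24.6 ± 4.88 in HF laparotomy (n = 3 each). Jun made up the largest part in all 12 libraries, from 55.6% to 72.9% of the sum. Its share was 65.5% ± 7.21 in LF controls, 63.2% ± 3.43 in LF laparotomy, 58.3% ± 2.57 in HF controls and 58.6% ± 0.404 in HF laparotomy. The Jund share was 21.4% ± 4.78, 25.2% ± 1.60, 28.7% ± 8.19 and 29.0% ± 3.21 in the same order. In controls LF and HF libraries overlapped in both shares. After laparotomy the Jun share was at least 59.3% in LF and at most 59.0% in HF, a difference that was not tested, while the Jund share overlapped. Fos TPM was 0.0345 to 0.0857 of the Jun family sum.

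**Figure D2:**
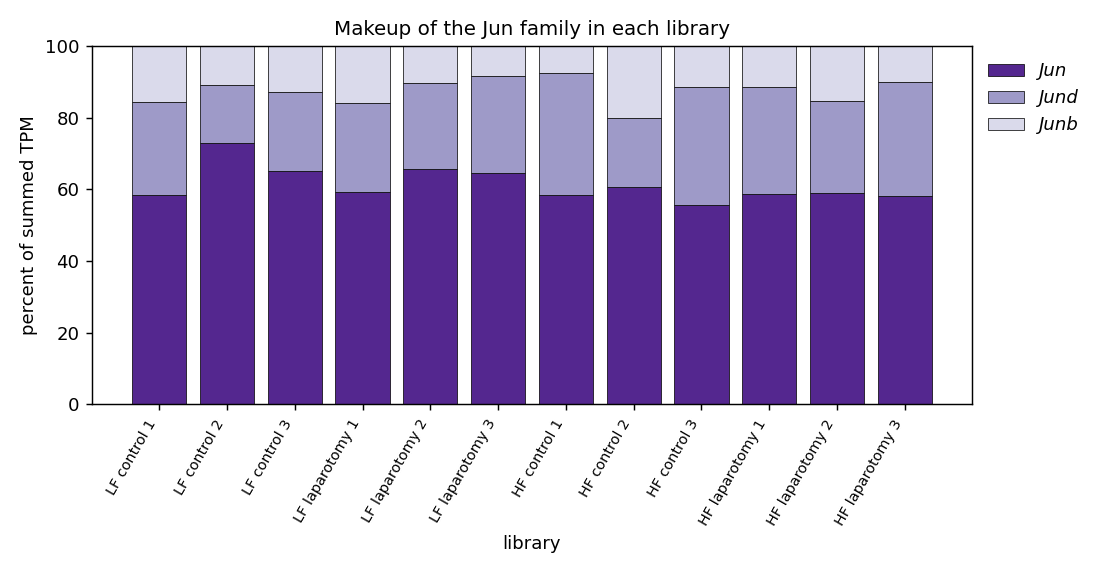
Makeup of the Jun family in each library, as the percent of the summed TPM of Jun, Jund and Junb (stacked bars, linear axis from 0 to 100). Jun is the largest part in every library (55.6% to 72.9%), and Junb takes its largest part, 20.0%, in HF control 2.

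Egr1, a zinc finger transcription factor, was at 2.89, 1.82 and 1.44 TPM in LF controls, 2.20, 1.54 and 1.62 in LF laparotomy, 2.34, 2.73 and 2.48 in HF controls and 2.14, 1.90 and 1.85 in HF laparotomy. Both the highest and the lowest value were in LF controls, while the HF control libraries kept close together (2.52 ± 0.197 TPM, n = 3) and all lay above the HF laparotomy libraries (1.97 ± 0.156 TPM, n = 3). Nr4a1, an orphan nuclear receptor, was at 9.74, 14.1 and 11.6 TPM in LF controls, 8.00, 12.4 and 18.4 in LF laparotomy, 13.6, 6.91 and 11.5 in HF controls and 6.83, 7.73 and 12.8 in HF laparotomy. All 4 groups overlapped, and its SD within groups on the log2 scale, 0.44, was larger than that of 96.9% of tested genes. The relatives Egr2, Egr3, Nr4a2 and Nr4a3 were listed at means of 0.394, 0.195, 0.567 and 0.352 TPM, below the minimum for the test.

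Atf3, a stress-induced bZIP factor of the ATF family, was at 6.27, 7.58 and 10.5 TPM in LF controls, 8.92, 8.37 and 10.3 in LF laparotomy, 10.9, 6.35 and 6.97 in HF controls and 5.78, 12.5 and 8.41 in HF laparotomy, and all 4 groups overlapped. Btg2, an antiproliferative protein that acts with the mRNA deadenylation machinery, was the steadiest member by fold, with 1.55-fold between its lowest and highest library. It was at 8.72, 9.32 and 9.80 TPM in LF controls, 9.18, 9.94 and 10.4 in LF laparotomy, 9.74, 10.96 and 9.18 in HF controls and 9.02, 13.5 and 9.50 in HF laparotomy. HF laparotomy 2 was its highest library, and the groups overlapped.

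Ier2, a nuclear protein induced by growth factors, was at 3.64, 2.87 and 2.98 TPM in LF controls and at 4.0, 4.63 and 5.07 in HF controls, with no overlap. After laparotomy it was at 2.72, 3.28 and 3.85 TPM in LF and 3.65, 4.17 and 4.30 in HF, where the lowest HF library fell below the highest LF one. Group means ± SD were ordered HF control 4.57 ± 0.540, HF laparotomy 4.04 ± 0.347, LF laparotomy 3.28 ± 0.568 and LF control 3.16 ± 0.416 TPM (n = 3 each). Within each function class the pair differed by less than the larger of its SDs, and the step from HF laparotomy to LF laparotomy exceeded both. Its SD within groups (0.15 on the log2 scale) was at the 40.5th percentile of tested genes.

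Ordered by mean, the groups of Junb were HF control (4.28 ± 2.60), LF control (3.42 ± 0.914), LF laparotomy (3.33 ± 0.453) and HF laparotomy (3.03 ± 0.848 TPM), and those of Nr4a1 were LF laparotomy (12.9 ± 5.22), LF control (11.8 ± 2.17), HF control (10.7 ± 3.45) and HF laparotomy (9.12 ± 3.22 TPM). For each of the 8 tested members other than Ier2, neighbouring groups in such an order differed by less than the larger of their SDs (n = 3 each). Ier2 was the only tested member with a step larger than that.

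The comparison of HF with LF asked whether these genes go with motor performance, and the main form averaged the treatments, with 6 libraries on each side. Differences are log2 of (TPM + 1), which understates changes of low genes, given ± SE and after subtracting the all-gene median, which was -0.147 before this centring; p-values are limma's, adjusted by Benjamini and Hochberg over 10757 genes, and test the difference before centring. Of 9 tested members, 1 rose in HF and 0 fell. Among all tested genes 41.3% were called, 6.03% higher and 35.3% lower, so 1 of 9 is read against a background in which calls were common. Of all calls 14.6% were higher, and 49.3% with median-of-ratios size factors, 24.6% with rescaled TPM and 44.5% after removing a length and GC trend. The member was Ier2 (0.48 ± 0.090, 0.33 before centring, limma adjusted p = 0.0115).

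Ier2 remained called in 19 of the 20 other fits. Without the 3 libraries with Myh4 above 30 TPM it stood at 0.43 (adjusted p = 0.0922), and over all 20 fits its adjusted p ranged from 0.000757 to 0.0922. With a trend on transcript length and GC content removed from each library its value was 0.32 (adjusted p = 0.00216). Over all tested genes the centred difference had a median of 0.16 in the shortest quartile of transcripts and -0.11 in the longest, and Ier2 belongs to the shortest quartile. How much of the Ier2 difference goes with length was not tested beyond that fit.

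The other 8 members did not pass in this comparison. Jund stood at 0.40 ± 0.156 (adjusted p = 0.202), Egr1 at 0.31 ± 0.110 (0.246), Btg2 at 0.24 ± 0.095 (0.466) and Junb at 0.17 ± 0.199 (0.943). Atf3 at 0.09 ± 0.173, Jun at 0.02 ± 0.126 and Fos at 0.00 ± 0.124 lay within 1 SE of the all-gene median, as did Junb, and Nr4a1 at -0.15 ± 0.207, also within 1 SE, was the only member below it. Median-of-ratios size factors, which centre the genes before the test, called Jund (0.42, adjusted p = 0.0360) and Btg2 (0.25, adjusted p = 0.0245) as well as Ier2. That scaling called 2146 of all 10757 tested genes higher. Egr1 passed without LF control 1, its highest library (0.40, adjusted p = 0.0383), and Fos passed as lower without LF laparotomy 1, its lowest library (-0.08, adjusted p = 0.0440). The median over the 9 tested members was 0.17 as reported, 0.15 with size factors and 0.02 after removing the length and GC trend, against 0 for all genes by the centring.

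**Figure D3:**
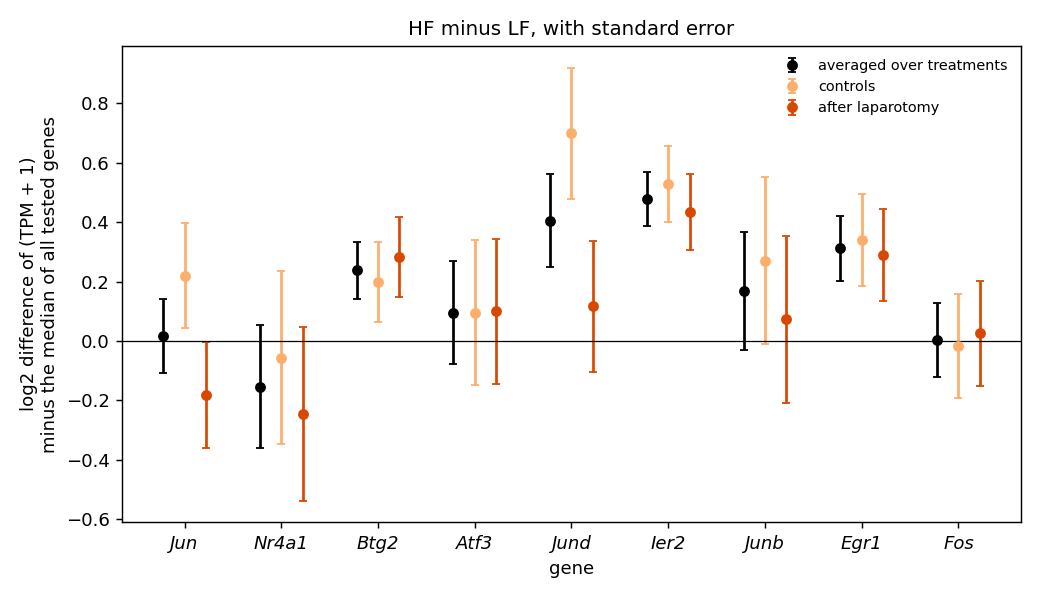
HF minus LF difference of each tested member in log2 of (TPM + 1), minus the median of all tested genes (line at 0), averaged over treatments, in controls and after laparotomy; points are estimates and bars are SE. Ier2 stands above the line in all 3 comparisons (0.43 to 0.53), and Jund is at 0.70 in controls and 0.12 after laparotomy.

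Within the controls no member was called by limma, against 10.5% of all tested genes, and 2 members had an unadjusted p below 0.05: Ier2 (0.53 ± 0.128, adjusted p = 0.0526) and Jund (0.70 ± 0.221, adjusted p = 0.0914). The Ier2 value lay just outside the threshold and passed in 6 of the 21 other fits. Among the 6 were size factors (0.00941), rescaled TPM (0.0252), the length and GC fit (0.0287) and array weights (0.0177). It also passed without LF laparotomy 1 (0.0285) or LF laparotomy 3 (0.0315), which enter only the spread. In the other fits it was not called, and its adjusted p reached 0.175 without HF control 3. Jund passed with size factors (0.0359) and array weights (0.0204), 2 of its 22 other fits, and its adjusted p reached 0.308 without LF control 2. After laparotomy no member was called either, against 26% of all tested genes, and none had an unadjusted p below 0.05. Ier2 was at 0.43 ± 0.128 (adjusted p = 0.173), Jund at 0.12 ± 0.221 (0.823), Jun at -0.18 ± 0.178 (0.132) and Nr4a1 at -0.24 ± 0.292 (0.280). Without LF laparotomy 1, the lowest Jun library of its group, Jun stood at -0.32 (adjusted p = 0.0133) and Fos at -0.14 (adjusted p = 0.0483).

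The comparison with laparotomy asked whether surgery elsewhere in the body left a trace in these genes after 5 days. No member was called by limma, and none had an unadjusted p below 0.05, averaged over function, in LF or in HF. Among all tested genes 0% were called in each of these 3 comparisons (747, 291 and 665 genes had an unadjusted p below 0.05), the same share as among the members. For Egr1, whose HF control and HF laparotomy libraries did not overlap, the difference in HF was -0.12 ± 0.155 (adjusted p = 0.655). Averaged differences ran from -0.18 ± 0.124 for Fos (adjusted p = 0.683) to 0.22 ± 0.173 for Atf3 (adjusted p = 0.784). In LF, Jund had the largest difference (0.43 ± 0.221, adjusted p = 0.9995), with its mean at 5.59 TPM in control and 7.60 TPM after laparotomy. In HF it went from 8.81 to 7.17 TPM (-0.15 ± 0.221, adjusted p = 0.660), and Jun from 18.4 to 14.4 TPM (-0.21 ± 0.178, adjusted p = 0.655). Within a function class the SE of a member ranged from 0.128 to 0.292, with 3 libraries on each side.

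Whether laparotomy acted differently in HF and LF was tested by the interaction. No member was called, none had an unadjusted p below 0.05, and 0% of all tested genes were called (331 had an unadjusted p below 0.05). Jund had the largest value among the members (-0.58 ± 0.312, limma adjusted p = 0.9998), followed by Jun (-0.39 ± 0.251, adjusted p = 0.9998). The remaining 7 ran from -0.19 for Junb to 0.09 for Btg2.

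**Figure D4:**
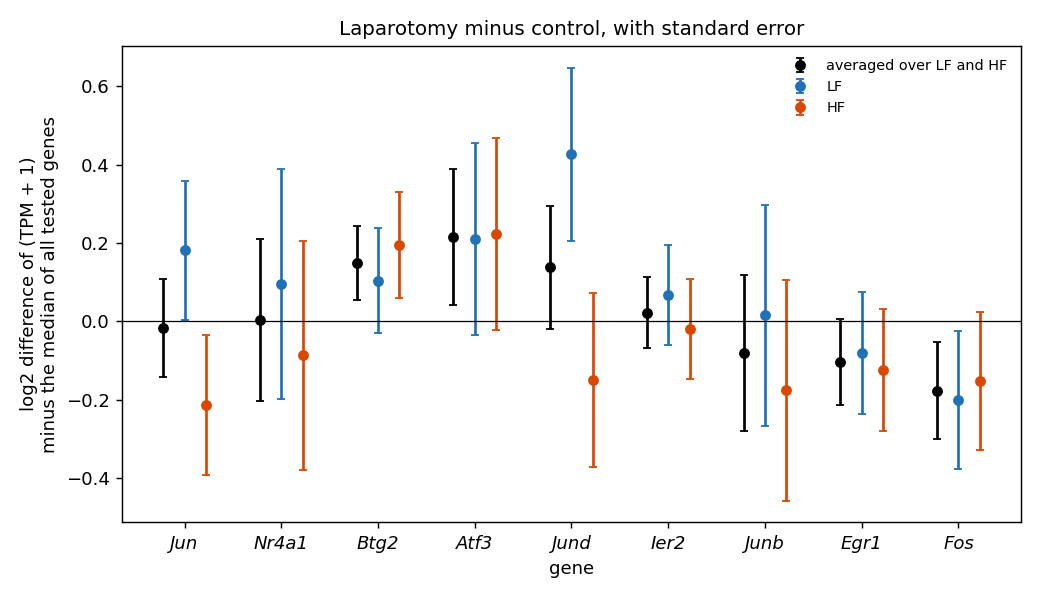
Laparotomy minus control difference of each tested member in log2 of (TPM + 1), minus the median of all tested genes (line at 0), averaged over function, in LF and in HF; points are estimates and bars are SE. Jund is at 0.43 in LF and -0.15 in HF, and no value passed the test.

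Single libraries differed in most members at once. LF laparotomy 3 held the highest Fos, Jun and Nr4a1, and the median deviation of its 9 tested members from their 12-library mean was 0.27 on the log2 scale. HF laparotomy 1 held the lowest Jun, Atf3 and Nr4a1, with a median deviation of -0.35 and a median rank of 11 of 12. LF laparotomy 1 held the lowest Fos and Ier2 (median deviation -0.25), and HF control 2 had the best median rank, 2, together with the highest Junb. By median deviation the lowest and the highest library both came from laparotomy groups, while by median rank the highest was HF control 2 and LF laparotomy 3 had a rank of 4. The members did not all follow this order: in HF control 2, Junb was the highest of all libraries while Nr4a1, at 6.91 TPM, was near its lowest.

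**Figure D5:**
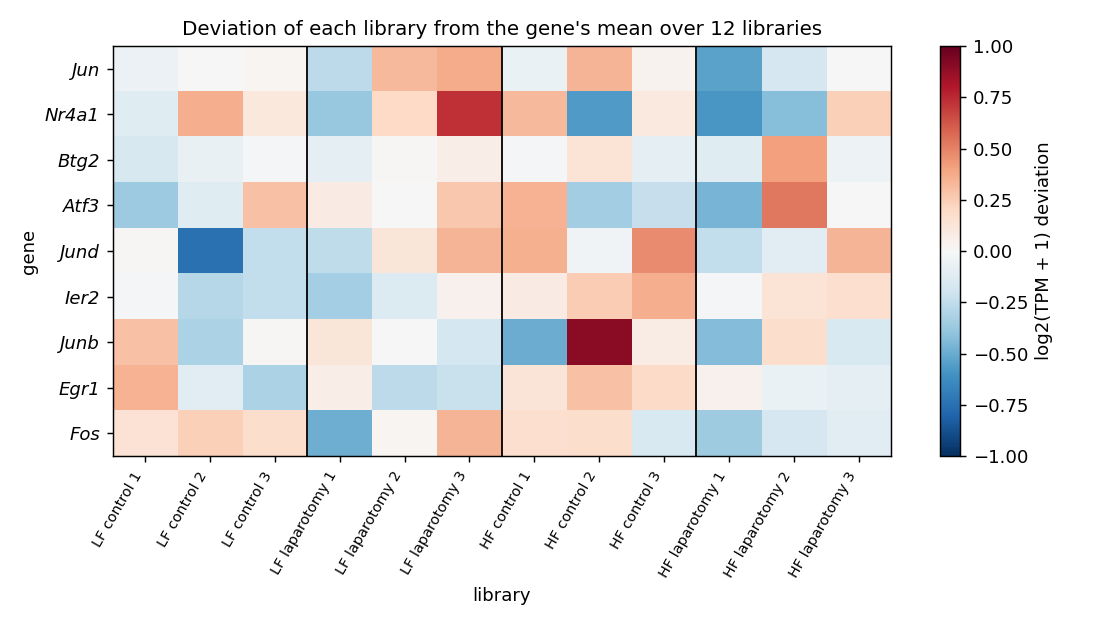
Deviation of each tested member from its own 12-library mean, in log2 of (TPM + 1), by library (columns, groups separated by lines; red above, blue below the mean). HF laparotomy 1 is below the mean in most rows (median -0.35) and LF laparotomy 3 above it in most (median 0.27), and Junb in HF control 2 is the darkest cell.

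The genes whose levels followed the members most closely were Cd3eap (Pearson r = 0.889), a subunit of RNA polymerase I, Golgb1 (0.857), a Golgi matrix protein, Eif4a1 (0.853), a translation initiation helicase, Epc1 (0.840), a chromatin regulator, and Fbrs (0.838). The measure is the correlation over 12 libraries with the mean of the standardized tested members, the highest 5 of 6426 genes that averaged 5 TPM or more. All points share the same libraries and their scaling, so this is a description.

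Other genes of the same response were taken from lists. Of 32 further rapid-response genes, 21 were tested: 2 rose in HF and 2 fell, with a median of 0.16, where 6.03% of all tested genes rose and 35.3% fell. Plk2, a stress-responsive kinase, rose (0.46 ± 0.094, adjusted p = 0.0170), with group means of 5.90 ± 0.297 and 5.15 ± 0.852 TPM in LF control and laparotomy and 7.88 ± 0.638 and 6.43 ± 1.10 TPM in HF control and laparotomy. Tiparp, an ADP-ribosyltransferase induced through the aryl hydrocarbon receptor, fell (-0.27 ± 0.093, adjusted p = 0.00392), but not after removing the length and GC trend (0.0767). Klf2, a flow-responsive transcription factor of endothelium, rose (0.82 ± 0.245, adjusted p = 0.0415), and Trib1, a pseudokinase, fell (-0.15 ± 0.105, adjusted p = 0.0373). Klf2 lost its call without a filter on low values (0.143), after removing the length and GC trend (0.0604), without the 3 Myh4 libraries (0.225), and without LF control 2 or 3, LF laparotomy 1 or 2, HF control 1 or 3 or HF laparotomy 2 or 3 (adjusted p 0.0716 to 0.108). Trib1 lost its call without a filter (0.0914), without LF control 2 or 3, LF laparotomy 2 or 3, HF control 1 or 3 or HF laparotomy 1 or 2 (0.0601 to 0.0957) and under each other scaling (0.0717 to 0.259). With size factors 4 of the 21 were higher and 1 lower, where 2146 of all 10757 tested genes were higher and 2211 lower.

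Of 13 tested bZIP relatives that can pair with Jun or bind the same elements, 1 rose and 5 fell in HF (median 0.04). These counts are close to the shares of all tested genes, 6.03% higher and 35.3% lower. With size factors 4 rose and 2 fell, where 2146 of all 10757 tested genes were higher and 2211 lower. Atf7 rose (0.60 ± 0.062, adjusted p = 0.000446), from 17.7 ± 0.848 and 16.3 ± 0.949 TPM in LF control and laparotomy to 23.4 ± 1.07 and 23.8 ± 0.521 TPM in HF. Atf1, a CREB relative, fell (-0.42 ± 0.124, adjusted p = 0.00392), as did Atf6, a sensor of endoplasmic reticulum stress (-0.36 ± 0.10, adjusted p = 0.00223). Atf2, a Jun partner, fell as well (-0.16 ± 0.094, adjusted p = 0.0185), but not with size factors (0.0769) or after removing the length and GC trend (0.460).

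Upstream of the members, 12 of 21 tested kinases and transcription factors fell in HF and 0 rose (median -0.13; 3 higher and 8 lower with size factors), against 35.3% of all genes lower. The Jun N-terminal kinase genes Mapk8 and Mapk9 fell by 0.60 ± 0.117 and 0.40 ± 0.092 (adjusted p = 0.000785 and 0.00106). Both were also called within controls and after laparotomy, and, averaged, in each of the 21 other fits. Of 13 tested feedback inhibitors, 6 fell and 0 rose averaged over treatments (median -0.08, 2 lower with size factors), against the same 35.3% of all genes lower. Within controls limma called 0 of the 13 (2 had an unadjusted p below 0.05, median 0.02), where 865 of all 10757 tested genes were lower. After laparotomy 7 were lower and 0 higher (median -0.15), where 2635 of the 10757 were lower. Whether these comparisons differ is not shown by the counts. Among the 6 that fell averaged over treatments were the MAP kinase phosphatase genes Dusp10 (-0.42 ± 0.094, adjusted p = 0.00105), Dusp4 (-0.30 ± 0.104, adjusted p = 0.00526), Dusp6 (-0.22 ± 0.109, adjusted p = 0.0177) and Dusp1 (-0.21 ± 0.109, adjusted p = 0.0196). Dusp1 and Dusp6 were not called with size factors (0.162 each) or without a filter on low values (0.0584 and 0.0529), Dusp6 not after removing the length and GC trend (0.135), and Dusp1 not without LF laparotomy 2 (0.0503) or HF laparotomy 2 (0.0545).

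Regulators of AU-rich mRNA decay set the life of such transcripts. Of 5 tested, with a median of 0.09, 2 were called lower in HF and 0 higher, against 35.3% of all tested genes lower. They were Hnrnpd (-0.16 ± 0.103, adjusted p = 0.0289) and Khsrp (-0.11 ± 0.088, adjusted p = 0.0330), and 0 were called with size factors, rescaled TPM or the length and GC fit. Neither passed without the 3 Myh4 libraries (0.0510 and 0.0704) or without a filter on low values (0.0779 and 0.0622). Hnrnpd was not called without LF control 2 or 3, LF laparotomy 2 or 3, HF control 3 or HF laparotomy 1 or 2 (0.0549 to 0.0667). Khsrp was not called without LF control 1 or 3, LF laparotomy 2 or 3, HF control 1 or 3 or HF laparotomy 1 or 2 (0.0662 to 0.0795). Of 6 inducible heat shock genes, Hsp90aa1 fell (-0.25 ± 0.096, adjusted p = 0.00621) and the other 5 did not pass. With laparotomy 0 genes of any of these 6 lists were called by limma, in LF, in HF or averaged, as among all tested genes (0%). Unadjusted limma p was below 0.05 in LF for 3 of the 6 heat shock genes (291 of all 10757 genes). In HF it was so for 4 of the 13 feedback inhibitors (665 of all genes). The other lists had 0 such genes in LF and at most 1 in HF.

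Markers of several cell types moved with function beside Ier2. They are read against 6.03% of all tested genes called higher in HF and 35.3% lower. Of 8 endothelial markers, 3 rose in HF and 0 fell (Egfl7, Cldn5 and Esam), none was at 0 in any library, and their summed level was 180 to 223 TPM in LF control, 184 to 245 in LF laparotomy, 234 to 293 in HF control and 216 to 271 in HF laparotomy. Of 6 tested Schwann and nerve markers, 3 rose and 0 fell, with sums of 66.2 to 72.6, 64.5 to 79.5, 93.8 to 108 and 79.8 to 251 TPM in the same order and none at 0. Of 7 slow fibre markers 3 rose and 1 fell, of 8 fast fibre markers 0 rose and 1 fell, and of 7 tested smooth muscle and pericyte markers 0 rose and 3 fell (Cspg4, Myh11 and Des), where 35.3% of all tested genes fell. Des averaged 1993 TPM, while the other markers of its list averaged at most 150 TPM (Rgs5). Which cells the Des transcripts came from was not tested. With size factors the counts were 4 higher and 0 lower for slow fibre, 1 and 1 for smooth muscle and pericyte, 6 and 0 for Schwann and nerve and 3 and 0 for endothelial markers. After removing the length and GC trend they were 3 and 0, 0 and 1, 5 and 0 and 4 and 0 in that order. Without the 3 Myh4 libraries they were 2 and 1, 0 and 3, 2 and 0 and 3 and 0. All tested genes had 2146 higher and 2211 lower of 10757 with size factors. The same counts were 1630 and 2035 of 10686 with the trend removed, and 356 and 3293 of 10757 without the Myh4 libraries. Of the adipocyte markers 1 of 4 tested rose (Fabp4), with Plin1 at 0 in 10 libraries. Fabp4 averaged 378 TPM, while the other adipocyte markers averaged at most 21.5 TPM (Cfd). Which cells the Fabp4 transcripts came from was not tested. Of the fibroadipogenic markers 1 of 7 rose (Ly6a, adjusted p = 0.0227). Ly6a was not called, leaving 0 of 7, without the 3 Myh4 libraries (0.142), nor without a filter on low values (0.0858). Leaving out HF laparotomy 2 (0.0584) or 3 (0.0538), LF control 3 (0.0582) or LF laparotomy 3 (0.0548) also ended its call. Macrophage (6 tested, Tyrobp at 0 in 3 libraries), satellite cell (3 tested) and erythroid (5 tested) markers had 0 calls. Their part in the Ier2 result was not tested.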

How the data were processed

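RNA-seq of mouse soleus was analysed in 12 libraries, 3 in each of 4 groups, grouped by the labelled condition and treatment. QIAzol and column extraction, polyA pull-down and a stranded Illumina kit are named per the labels' protocols. TPM per gene is what the authors deposited. Per the submitters' processing notes the tools were kallisto and DESeq2 and the build GRCm38, with no version or role. No source used here gives read counts, the strand setting of the quantification or batch, so counting error has no interval. GENCODE M21 gave symbols for 29857 identifiers and none for 466.

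From the deposited TPM, log2 of (TPM + 1) was computed, and the 10757 genes averaging 1 TPM or more were fitted with limma 3.58.1 (R 4.3.3; trended eBayes, a mean for each group, 8 residual degrees of freedom, two-sided). P-values were adjusted by Benjamini and Hochberg over the genes of a contrast (7 contrasts) and called below 0.05. The fit was tested on simulated data. Members and lists were chosen with earlier results of these data known. All 10 members are named, up to 4 called genes of each other list and contrast by smallest p, and 5 genes by likeness; to save room, calls within a treatment are named for few list genes. A few list genes that this rule names are not reported. Alternatives were pseudocounts of 0.5 and 0.1, no filter, at least 5 TPM, size factors, TPM rescaled after dropping the 13 mitochondrially encoded genes and the 10 highest, a length and GC trend removed, array weights, only the groups compared, no libraries with Myh4 above 30 TPM, and each library left out. Near-identical copies were searched at 95% identity and 80% cover. Promoters came from RefSeq (GRCm38.p6), and 8 members were searched; Egr1 and Ier2 were not used here.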

Additional observations from a re-analysis of the deposited data

How the results depend on the processing

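Of the 9 tested members, the number called in HF against LF averaged was 1, and it was 0 with a minimum of 5 TPM (Ier2 and 3 others are then not tested, 5 members remain), 0 without the 3 libraries with Myh4 above 30 TPM, 3 with size factors and 1 to 2 without single libraries (2 without LF control 1 or LF laparotomy 1). In controls it was 0, but 2 with size factors, 1 with rescaled TPM, 1 with the length and GC trend removed, 2 with array weights and 0 to 1 without single libraries (1 without LF laparotomy 1 or 3). After laparotomy it was 0, but 1 with size factors, 1 with rescaled TPM, 1 with the length and GC trend removed, 3 with array weights (Jun, Ier2 and Nr4a1), 1 without the Myh4 libraries (Jun) and 0 to 2 without single libraries (2 without LF laparotomy 1). For the 3 laparotomy comparisons and the interaction it was 0 in every fit run. Of all 10757 tested genes, array weights called 664 higher and 2463 lower in controls, and 931 and 5105 after laparotomy. Size factors called 974 and 960, then 1001 and 1154, in the same order. Rescaled TPM called 456 and 1784, then 463 and 1422. The length and GC fit called 586 and 710, then 671 and 1049, of 10686. After laparotomy 72 and 2579 were called without the Myh4 libraries. Fos in HF against LF ranged from -0.0799 to 0.0692 averaged and from -0.136 to 0.159 after laparotomy without single libraries, with the lowest values called. Why these values moved was not tested. Over 63 member differences and 1331 alternative values, 1 call was lost and 19 were gained besides the 2 for Fos, and 114 values fell on the other side of the all-gene median, 102 of them for reported differences under 0.1 log2.

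Of all genes called in HF against LF averaged, 14.6% were higher as deposited, 49.3% with size factors, 24.6% with rescaled TPM and 44.5% after removing the length and GC trend. No paired analysis was possible because nothing in the labels pairs the libraries. Depth is unknown, so the lowest members (Fosb, Fos and Egr1) have no counting error attached.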
